A study of Mus musculus with 6 samples.

Results

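The genes described here are 8 genes of retinoid (vitamin A) metabolism, Rdh11, Rdh10, Rdh5, Rdh7, Rbp4, Retsat, Lrat and Aldh1a1, in the liver of mice without ACBP, the carrier of acyl-CoA esters that Dbi encodes. Their members on the array were all probe sets to which the platform annotation gives one of these symbols alone, 12 of the 45101 probe sets. A probe set is a group of short probes designed for the transcripts of a gene, some of which bind transcripts of related genes as well, and Rdh11, Rdh10, Retsat and Lrat each had 2 of them. All 12 were called Present, that is above background by the detection test of the array software, in all 6 samples, so no member was lost to the filter on low values. The largest p-value of that detection test was 0.0303, for the brighter Rdh11 probe set, and at most 0.00293 for the others. For Rdh5, 1 more probe set that carries the name of another gene as well was left out.

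Each of the 6 arrays held liver RNA pooled in equal amounts from 5 mice, with 3 pools from 15 ACBP-/- mice and 3 pools from 15 +/+ mice. Mice of both genotypes were 21 days old, of the strain labelled C57BL/6JBomTac, and in the fed state until they were taken from the mother. No promoter, Cre or treatment is named in the labels, which say no more of the mutant allele than its genotype. Pools of 5 different mice differ less than single mice do, so the spread between pools does not give the spread between animals.

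Retinol is carried in plasma by a binding protein from hepatocytes, and the liver stores most of the body's vitamin A as retinyl esters in stellate cells. Dehydrogenases of the short-chain family convert retinol and retinal into each other, and retinal dehydrogenases oxidise retinal to retinoic acid, the ligand of the retinoic acid receptors. Other enzymes esterify retinol, saturate it, or split the esters again.

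At the brightest probe set of Dbi, log2 signals were 15.94, 15.74 and 15.77 in wild-type pools 1, 2 and 3, and 5.37, 5.32 and 5.15 in knockout pools 1, 2 and 3. The other Dbi probe sets fell by less, with log2 fold changes of -4.08, -4.00 and -3.91. They were Present in all 3 knockout pools, at 5.93% to 6.65% of the wild-type signal. All of them carry a suffix for probes that may bind other transcripts. The brightest probe set was Present in 1 of 3 knockout pools, at 0.0673% of the wild-type signal. Of 12 hepatocyte markers 10 could be tested, and 0 of them passed limma in either direction (2 had an unadjusted p below 0.05), with a median log2 fold change of -0.01. Of 8 Kupffer cell markers 1 fell (Marco), and of 7 sinusoidal endothelial markers 2 fell (Clec4g and Cdh5), against 3.87% of all tested genes. The summed linear signal of the endothelial list ran from 4875 to 5013 across wild-type pools and from 4362 to 4531 across knockout pools. For the Kupffer cell list it ran from 7438 to 8567 and from 7687 to 7942. The part of cell composition in the results was not tested. The share of probe sets called Present lay between 48.4% and 51.1% of each array. The 3' to 5' signal ratio of the actin control, a measure of RNA integrity, ran from 2.34 to 2.35 in the knockout and from 2.18 to 2.19 in the wild-type pools. For Gapdh this ratio ranged from 0.874 to 0.916. The part of RNA integrity in the results was not tested. Knockout pool 1 stood apart at the Y-linked gene Eif2s3y, with 1.16 against 6.97 to 8.69 in the other pools. At the brightest probe set of Kdm5d, also Y-linked, it read 2.29 against 4.39 to 6.57. The brightest Xist probe set read 11.04, 9.14 and 11.01 in wild-type and 11.14, 10.03 and 9.04 in knockout pools. The labels do not give the sex of the mice, so the mix of males and females in each pool is not known. Values without knockout pool 1 are therefore given beside the members that changed.

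The promoters of the members with the largest fall and the largest rise are shown first, because these genes moved in opposite directions. They are from RefSeq in the build GRCm38.p6 and run from 250 bases before to 50 bases after an annotated start. RefSeq gave 2 starts for Rdh11, at chr12:79191806-79192105 and chr12:79190912-79191211, both on the minus strand, and 1 for Retsat at chr6:72598352-72598651 on the plus strand. The sequences read 5' to 3' along the gene's own strand, and capitals mark the motifs described after them.
Rdh11, first window: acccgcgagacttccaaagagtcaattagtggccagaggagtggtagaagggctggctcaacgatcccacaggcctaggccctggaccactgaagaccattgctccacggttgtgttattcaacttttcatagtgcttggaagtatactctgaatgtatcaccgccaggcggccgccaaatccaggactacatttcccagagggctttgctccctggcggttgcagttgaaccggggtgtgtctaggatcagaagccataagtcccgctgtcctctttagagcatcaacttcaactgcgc
Rdh11, other window: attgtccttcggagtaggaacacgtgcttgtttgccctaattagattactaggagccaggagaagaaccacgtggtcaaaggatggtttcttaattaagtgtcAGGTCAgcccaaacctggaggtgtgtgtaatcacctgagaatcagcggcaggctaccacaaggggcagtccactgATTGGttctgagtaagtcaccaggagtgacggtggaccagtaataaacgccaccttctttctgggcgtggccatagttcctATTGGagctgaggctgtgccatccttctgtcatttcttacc
Retsat: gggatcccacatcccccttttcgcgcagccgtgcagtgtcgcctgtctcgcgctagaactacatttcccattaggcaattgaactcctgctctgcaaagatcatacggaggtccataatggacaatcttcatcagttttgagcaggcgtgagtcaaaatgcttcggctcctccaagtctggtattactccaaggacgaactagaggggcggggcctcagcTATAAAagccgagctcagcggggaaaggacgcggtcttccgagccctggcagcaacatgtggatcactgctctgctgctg

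Motifs were searched on both strands in 11 promoter windows of 7 members, namely Rdh11, Rdh5, Rdh7, Rbp4, Retsat, Lrat and Aldh1a1. The motif TCACNCCAC, a form of the element bound by SREBP factors, was in 0 of the 11 windows and in 1.24% of all 32851 windows of the table. AGGTCA, the core element of many nuclear receptors, was in 2 of the 11, 1 of Rdh11 and 1 of Rdh7, against 16.3% of all windows. In Rdh11 it began 147 bases before the start in the window shown with capitals. That window also held the CCAAT box read from the opposite strand (ATTGG), which began 72 bases before the start and again at base 10 after it. CCAAT was in 5 of the 11 windows and in 37.4% of all windows. TATAAA was in 2 of the 11, and in 13.6% of all. One of those is the Retsat window, where it began 30 bases before the start, and the other belongs to Rbp4. Direct repeats of AGGTCA, spaced by 1, 2 or 5 bases, were in 0 of the 11 windows and in 0.0396%, 0.00913% and 0.00913% of all windows. A match is a match of letters only, and the absence of one says only that the letters are not in that window.

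Of the 8 genes, 1 fell, 2 rose and 5 did not pass the test when ACBP was absent. The comparison asked how transcript levels in the liver differ between the genotypes. A gene was counted as changed at an adjusted p below 0.05 in limma, a linear model fitted to all 22482 probe sets that were Present on at least 3 arrays, with Benjamini-Hochberg adjustment over all of them. Where a gene had several probe sets, the brightest stood for it. Over the 10908 genes tested in this way 7.16% changed, 3.29% being higher and 3.87% lower in knockout liver. At the level of probe sets, 5 of the 12 changed, 3 higher and 2 lower, against 5.68% of all tested, of which 2.68% were higher and 3% lower. The median log2 fold change of the 8 genes was 0.00, and that of all tested genes 0.02. These genes were chosen with results of the same data known, so the counts are a description.

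**Figure D1:**
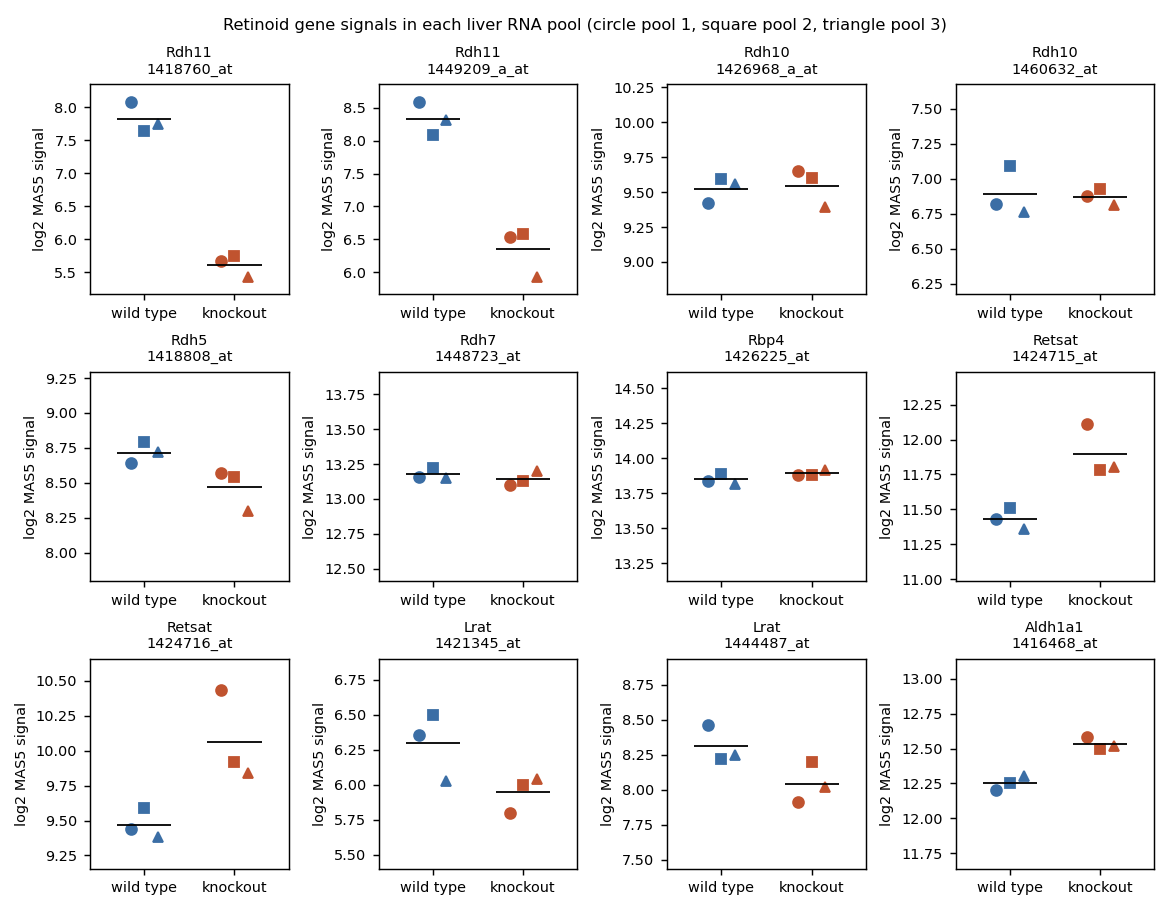
Log2 MAS5 signal of the 12 probe sets of the 8 retinoid genes (vertical axes, each with its own range) in 3 wild-type pools (blue) and 3 knockout pools (red), with the pool number given by the symbol and the mean of each group as a line. The groups lie far apart for both Rdh11 probe sets, apart for Retsat and Aldh1a1, and overlap for Rdh10, Rdh7 and Rbp4.

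Rdh11 (chr12:79174233-79191855), which encodes a microsomal retinal reductase of the short-chain dehydrogenase family, was the gene that fell. It is known in mouse liver as a target of the SREBP factors, under the name SCALD that RefSeq lists as a synonym. Its brighter probe set read 8.59, 8.09 and 8.31 in wild-type pools 1, 2 and 3 and 6.53, 6.58 and 5.93 in knockout pools 1, 2 and 3. Every knockout pool lay below every wild-type pool, and the lowest was knockout pool 3. The mean went from 8.33 ± 0.25 to 6.35 ± 0.36 (SD, n = 3 pools), a log2 fold change of -1.98 (SE 0.16, 95% interval -2.31 to -1.64, limma adjusted p = 3.02e-07). In linear terms the knockout signal was 25.4% of that in wild type. In RNA of whole liver, fewer cells of a type and less RNA per cell cannot be told apart.

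The other Rdh11 probe set read 8.08, 7.64 and 7.75 in wild-type pools 1, 2 and 3 and 5.67, 5.74 and 5.43 in the knockout pools. Its pools were apart as well, and its log2 fold change of -2.21 (SE 0.13, limma adjusted p = 8.71e-09) lies within the interval of the brighter one. The knockout signal here was 21.6% of that in wild type. By its brighter probe set Rdh11 had the 20th largest fall among the 10908 genes. Without knockout pool 1 the log2 fold changes of the 2 probe sets were -2.07 and -2.24. In the authors' deposited table the dimmer probe set was 4.63-fold lower with a p-value of 0.000168 and a corrected p-value of 0.108, and the brighter was 3.94-fold lower with a corrected p-value of 0.185.

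Retsat (chr6:72598602-72607488), the enzyme that saturates retinol to dihydroretinol and that RefSeq also lists as Ppsig, rose. Its brighter probe set read 11.43, 11.51 and 11.36 in wild-type pools 1, 2 and 3 and 12.11, 11.78 and 11.80 in knockout pools 1, 2 and 3. All knockout pools were above all wild-type pools, with knockout pool 1 highest. The log2 fold change was 0.47 (SE 0.08, 95% interval 0.31 to 0.63, limma adjusted p = 0.00103), which is a signal 1.38-fold that of wild type. The dimmer probe set went from 9.44, 9.59 and 9.38 to 10.43, 9.92 and 9.84, again highest in knockout pool 1. Its log2 fold change was 0.59 (SE 0.12, limma adjusted p = 0.00547).

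Knockout pool 1 is the pool that stood apart at Eif2s3y, and the Retsat rise was smaller without it. In that setting the log2 fold changes were 0.36 (limma adjusted p = 0.00185) and 0.41 (limma adjusted p = 0.00972), so both probe sets still passed. With the signal of Xist, expressed from the inactive X chromosome, as a covariate they were 0.48 and 0.62. In the authors' deposited table the corrected p-values of Retsat were 0.352 and 0.459.

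Aldh1a1 (chr19:20492583-20643463), the retinal dehydrogenase of adult liver that makes retinoic acid, rose by less but with little spread. Its probe set read 12.20, 12.25 and 12.30 in wild-type pools 1, 2 and 3 and 12.58, 12.50 and 12.52 in knockout pools 1, 2 and 3. The groups did not overlap, and the SD was 0.05 in wild-type and 0.04 in knockout pools. The log2 fold change was 0.28 (SE 0.05, 95% interval 0.18 to 0.39, limma adjusted p = 0.00168), a signal 1.22-fold that of wild type. Without knockout pool 1 it was 0.26 (limma adjusted p = 0.00765). The corrected p-value that the authors deposited for Aldh1a1 was 0.195.

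The calls for Retsat and Aldh1a1 rest on the variance model. When limma took the same prior variance for dim and bright probe sets, the adjusted p was 0.105 for Retsat and 0.148 for Aldh1a1, while that of Rdh11 was 0.0052. Over all alternatives tried the limma adjusted p of the brighter probe sets ran from 9.1e-06 to 0.105 for Retsat and from 3.05e-13 to 0.0052 for Rdh11, and that of Aldh1a1 from 0.000594 to 0.148.

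**Figure D2:**
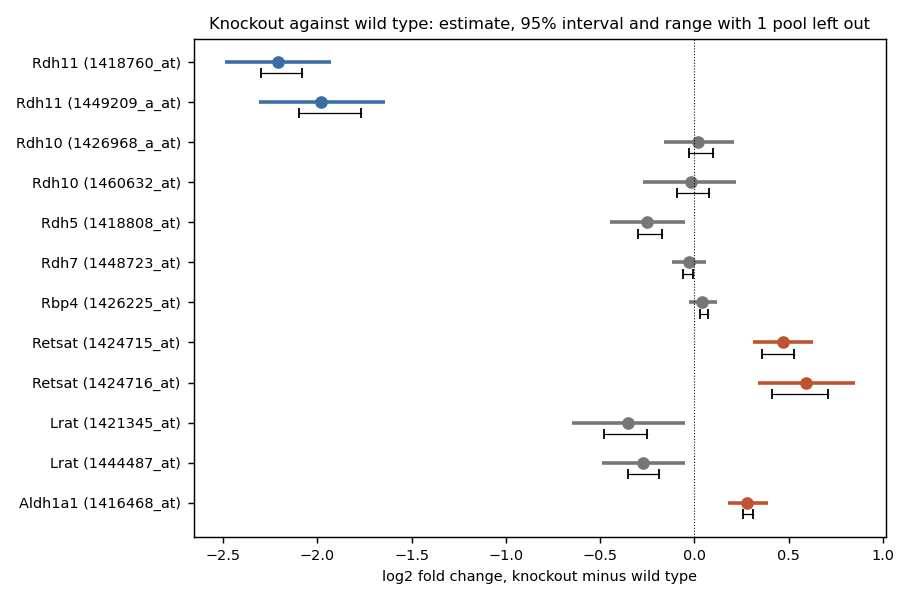
Log2 fold change of each probe set, knockout minus wild type (horizontal axis), with its 95% interval from limma as the thick line, coloured blue where lower, red where higher and grey where the test was not passed. The thin line under each shows the range of the estimate when 1 of the 6 pools is left out, from -2.10 to -1.77 for the brighter Rdh11 probe set and from 0.36 to 0.53 for the brighter Retsat probe set.

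Lrat (chr3:82892582-82903974), which esterifies retinol in stellate cells, read lower in knockout liver without passing the test. Its brighter probe set read 8.46, 8.22 and 8.25 in wild-type pools 1, 2 and 3 and 7.91, 8.20 and 8.02 in the knockout pools. The groups just failed to overlap, with knockout pool 2 and wild-type pool 2 next to each other. The log2 fold change was -0.27 (SE 0.10, 95% interval -0.49 to -0.05, limma adjusted p = 0.174). The dimmer probe set read 6.36, 6.50 and 6.03 in wild type and 5.80, 6.00 and 6.04 in knockout, where the groups overlapped. It gave a log2 fold change of -0.35 (SE 0.14, limma adjusted p = 0.198).

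Lrat is found in stellate cells, so markers of these cells are given beside it. Of 18 tested stellate cell and fibroblast markers other than Lrat, 4 fell, 1 rose and 13 did not pass, with a median log2 fold change of -0.11. Over all tested genes 3.87% fell and 3.29% rose. Those that fell were Reln by 0.24, the smooth muscle actin Acta2 by 0.40 and the collagen genes Col1a2 by 0.34 and Col3a1 by 0.26 on the log2 scale (limma adjusted p = 0.0325, 0.0205, 0.0179 and 0.0364). None of their other tested probe sets passed. Those gave -0.40 for Reln, -0.16 for Acta2, -0.37 and 0.68 for Col1a2 and -0.34 for Col3a1. Rgs5, also a pericyte marker, rose by 0.35 (limma adjusted p = 0.0126). Another Rgs5 probe set gave 0.53 and passed, and the rest gave 0.23 and 0.30 and did not. The 13 that did not pass went both ways. Lhx2, Ecm1, Pdgfrb, Cygb, Pdgfra, Dcn and Hand2 read higher in knockout, with log2 fold changes from 0.05 to 0.18. Ngfr, Lum, Col1a1, Vim, Sparc and Colec11 read lower, from -0.36 to -0.04. The summed linear signal of the list ran from 17547 to 17724 across wild-type pools and from 16135 to 17085 across knockout pools, and Des and Gfap were called Present in no pool. The part of these cells in the Lrat values was not tested. Calls on this list moved with single pools: without wild-type pool 1 or wild-type pool 2, 0 markers fell and 0 rose. Without wild-type pool 3 or knockout pool 2, 1 fell and 1 rose.

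Rdh5 (chr10:128913588-128920037), best known as the 11-cis-retinol dehydrogenase of the retinal pigment epithelium, did not pass the test. It read 8.64, 8.79 and 8.72 in wild-type pools 1, 2 and 3 and 8.57, 8.54 and 8.30 in the knockout pools. Knockout pools 1 and 2 lay close under the lowest wild-type pool, and knockout pool 3 further below. The log2 fold change was -0.25 (SE 0.10, 95% interval -0.45 to -0.05, limma adjusted p = 0.167). It passed the test after quantile normalization (limma adjusted p = 0.0255) and after centring each array on its median (limma adjusted p = 0.0328), with log2 fold changes of -0.28 and -0.26. Over all alternatives tried its limma adjusted p ran from 0.0255 to 0.445. At probe set level the groups did not overlap for 7 of the 12, against 22.4% of all tested, and Rdh5 and the brighter Lrat probe set are those of the 7 that did not pass.

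Rbp4 (chr19:38116620-38125321), the plasma retinol carrier that hepatocytes secrete, overlapped between the genotypes. It read 13.84, 13.89 and 13.82 in wild-type pools 1, 2 and 3 and 13.88, 13.88 and 13.92 in the knockout pools. The log2 fold change was 0.04 (SE 0.04, limma adjusted p = 0.605). The 95% interval ran from -0.03 to 0.12. Ttr, the transthyretin that binds the carrier in plasma, had a log2 fold change of -0.01 (SE 0.04, 95% interval -0.08 to 0.07, limma adjusted p = 0.94). Its 3 other probe sets lay between 0.00 and 0.03.

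Rdh7 (chr10:127884027-127889247), a liver dehydrogenase of cis-retinols and androgens also listed as CRAD2, read 13.16, 13.22 and 13.15 in wild-type and 13.10, 13.13 and 13.20 in knockout pools. These groups overlapped, with a log2 fold change of -0.03 (SE 0.04, 95% interval -0.12 to 0.06, limma adjusted p = 0.78). Rdh7 belongs to a group of closely related genes with Rdh9, Rdh1 and Rdh16, so its probes may also bind transcripts of its relatives. Rdh9, whose probe set has a suffix for shared probes, gave -0.04 (SE 0.05, limma adjusted p = 0.715).

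Rdh10 (chr1:16105882-16132550), the retinol dehydrogenase that begins retinoic acid synthesis in the embryo, lies on chromosome 1 as Dbi does. Its brighter probe set read 9.42, 9.59 and 9.56 in wild-type and 9.65, 9.60 and 9.39 in knockout pools. The dimmer read 6.82, 7.09 and 6.76 in wild-type and 6.88, 6.93 and 6.81 in knockout pools. Both overlapped, with log2 fold changes of 0.02 (95% interval -0.16 to 0.21, limma adjusted p = 0.927) and -0.02 (95% interval -0.27 to 0.22, limma adjusted p = 0.951). The sign of either changed when single pools were left out.

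With 3 pools against 3, the smallest p of an exact permutation test (two-sided) is 0.1. That value was reached by both probe sets of Rdh11 and of Retsat, by Aldh1a1, by Rdh5 and by the brighter probe set of Lrat. No sentence in the labels places the arrays in batches.

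Among other genes of retinoid handling, 46 of 80 listed symbols had a tested probe set, and 4 genes rose, 1 fell and 41 did not pass, against 3.29% higher and 3.87% lower over all tested genes. The median log2 fold change of the 46 was 0.07, with a range from -0.43 to 0.56. The groups did not overlap for 15 of the 46, 8 higher and 7 lower, against 25.6% of all tested genes. The number that rose was 2 when wild-type pool 1 was dropped and 12 when knockout pool 3 was, and the number that fell was 1 to 2 with any pool left out. When knockout pool 1 was dropped, 3 rose and 2 fell. The genes that rose were 2 carboxylesterases, an aldehyde oxidase and a lipoprotein receptor, and the one that fell was a lipoprotein lipase. Like the 8 members, these lists were drawn up with results of the data known.

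Of 10 tested genes that make or split retinyl esters or cleave carotene, 2 rose and 1 fell. Ces1d, a carboxylesterase of the endoplasmic reticulum that can split retinyl esters and triglycerides, read 12.32, 12.23 and 12.29 in wild-type and 12.78, 12.70 and 12.67 in knockout pools. Every knockout pool was higher, with a log2 fold change of 0.44 (SE 0.05, limma adjusted p = 1.91e-05), and its 2 other probe sets gave 0.52 each and passed as well. Ces1f rose by 0.56 (SE 0.10, limma adjusted p = 0.00173). The carboxylesterase genes are alike in sequence, and the probe set of Ces1f has a suffix for shared probes, so these signals may not be independent. Lpl, which frees fatty acids and retinyl esters from lipoproteins, fell by 0.36 (SE 0.09, limma adjusted p = 0.0224) and its other probe set gave -0.34 (limma adjusted p = 0.14). Dgat1, an acyltransferase that can also esterify retinol, gave 0.26 (SE 0.11, 95% interval 0.02 to 0.50, limma adjusted p = 0.226).

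Of 4 tested aldehyde dehydrogenases and aldehyde oxidases listed here beside Aldh1a1, Aox1 rose. This aldehyde oxidase read 8.80, 8.78 and 9.04 in wild-type and 9.46, 9.27 and 9.23 in knockout pools. The groups were apart, and the log2 fold change was 0.45 (SE 0.10, limma adjusted p = 0.00808). The other 3, Aldh1a7, Aldh8a1 and Aox3, did not pass. Aldh1a7 gave -0.18 and Aox3 -0.16 (limma adjusted p = 0.124 and 0.191), both with every knockout pool below every wild-type pool. Aldh8a1 gave 0.11 (limma adjusted p = 0.415). Of the 4, 3 had an unadjusted p below 0.05 in limma, and the median log2 fold change was -0.02. Over all tested genes 3.29% rose and 3.87% fell. Aldh1a2 was called Present in no pool.

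Of 4 tested carriers and uptake genes, Scarb1 rose. It encodes a lipoprotein receptor that also takes up carotenoids. The probe set that stood for it gave a log2 fold change of 0.23 (SE 0.06, limma adjusted p = 0.0481), and the 2 others gave 0.34 and 0.35 and passed. Ttr, Cd36 and Stra6l did not pass. Stra6l gave -0.29 (limma adjusted p = 0.0999), with every knockout pool below every wild-type pool. Cd36 gave 0.42 (limma adjusted p = 0.138), where the groups overlapped. Of the 4, 3 had an unadjusted p below 0.05 in limma, and over all tested genes 3.29% rose. The retinoic acid binding protein genes Crabp1 and Crabp2 and the retinol receptor Stra6 were called Present in no pool.

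Of 14 tested retinol and retinal oxidoreductases other than the members, 0 passed the test by limma (4 had an unadjusted p below 0.05), and their log2 fold changes ran from -0.25 to 0.35. Nor did any of 8 tested genes of the receptor list (-0.41 to 0.35, 2 with an unadjusted p below 0.05). That list holds Nrip1, a corepressor and not a receptor, which gave 0.35 (limma adjusted p = 0.188). None of 7 tested genes known to respond to retinoic acid passed (-0.43 to 0.14, 2 with an unadjusted p below 0.05). Rxra, the partner of the retinoic acid and PPAR receptors, gave 0.11 (SE 0.07, limma adjusted p = 0.461). Rara was called Present in no pool. Cyp26a1, the retinoic acid hydroxylase that is itself induced by retinoic acid, was called Present in 1 of 3 pools of each genotype and was not tested. It read 4.06, 4.27 and 4.76 in wild-type and 4.51, 5.95 and 4.21 in knockout pools. Several genes chosen here after their values were seen lay near the threshold, Tgm2 lower (limma adjusted p = 0.052), Pnpla2 higher (limma adjusted p = 0.0533), Hsd17b6 lower (limma adjusted p = 0.0584) and Dhrs4 higher (limma adjusted p = 0.0636).

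**Figure D3:**
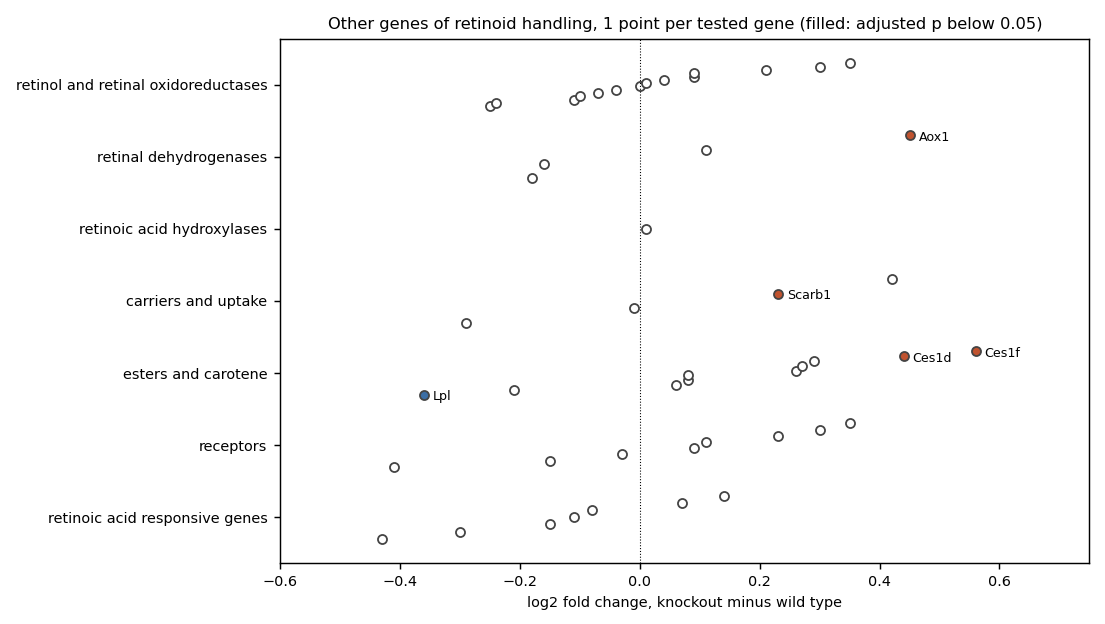
Log2 fold change, knockout minus wild type (horizontal axis), of the tested genes of retinoid handling other than the 8 members, by role (rows), with 1 point per gene and with Rarb and Dhrs3 shown in 2 rows. Filled points passed the test: Aox1 at 0.45, Scarb1 at 0.23, Ces1d at 0.44 and Ces1f at 0.56 were higher, and Lpl at -0.36 was lower.

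For the 3 genes that changed, the genes with the most similar course over the 6 pools were found among 10900 other genes. The measure was the root mean square difference of log2 signals, each centred on its own mean, and 5 genes were named for each. It follows the genotype difference and the order of single pools together, and all genes share the same 6 arrays. Like fold changes and shared high or low pools therefore largely follow from this choice of genes.

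Closest to Rdh11 were Pmvk at 0.17, Ccna2 at 0.20, Top2a at 0.20, Pbk at 0.21 and Tm7sf2 at 0.22. Pmvk and Tm7sf2 encode enzymes of cholesterol synthesis, and Ccna2, Top2a and Pbk are genes of dividing cells. Their log2 fold changes lay between -2.02 for Pmvk and -1.67 for Ccna2. Centred values of Rdh11 were lowest in knockout pool 3, at -1.40, as were those of the 5 others.

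Closest to Retsat were Gna12 and Polg2 at 0.05 and Smim4, Wdr44 and Cyp4a14 at 0.06. Cyp4a14 encodes a fatty acid hydroxylase that is known as a target of PPAR alpha in mouse liver, and it rose by 0.43 (SE 0.08, limma adjusted p = 0.00382). All 6 genes were highest in knockout pool 1, where Retsat stood 0.45 above its mean. Wdr44 had a log2 fold change of 0.42 and did not pass (limma adjusted p = 0.132).

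Closest to Aldh1a1 were Reep6, Hgd and Map2k2 at 0.02 and Mxi1 and Acaa1a at 0.03. Hgd acts in tyrosine breakdown and Acaa1a is a thiolase of peroxisomal beta-oxidation. Their log2 fold changes lay between 0.24 and 0.29, where Map2k2 and Mxi1 did not pass (limma adjusted p = 0.115 each).

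**Figure D4:**
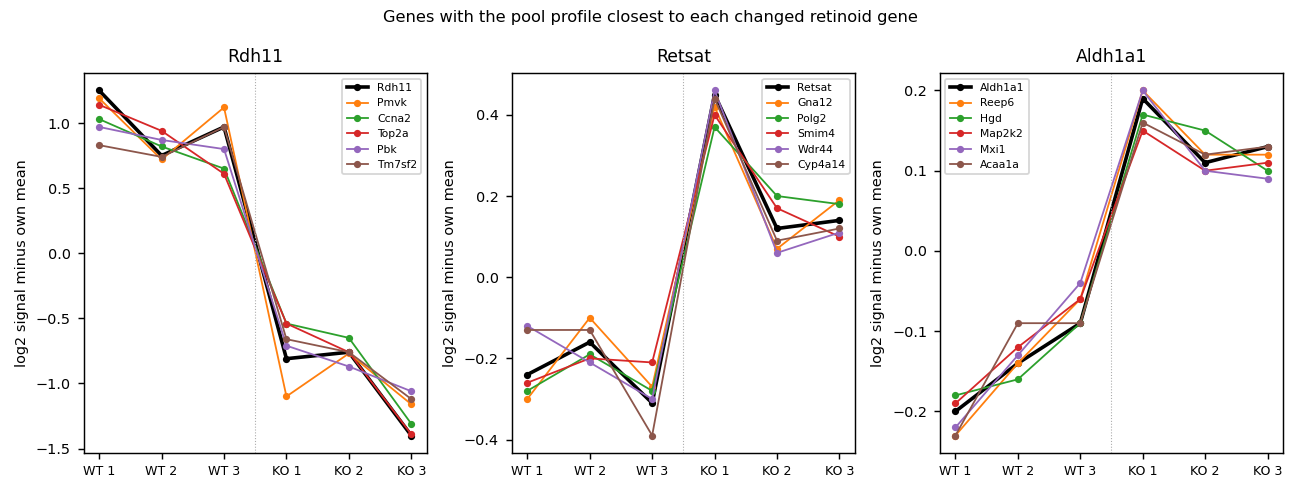
Log2 signal minus the gene's own mean (vertical axes) in the 3 wild-type (WT) and 3 knockout (KO) pools for Rdh11, Retsat and Aldh1a1 (black) and the 5 genes with the closest course, where lines only join the points of a gene and pools have no order. The Rdh11 set is lowest in knockout pool 3, and the Retsat set is highest in knockout pool 1. For the genes beside the members this largely follows from how they were chosen.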

How the data were processed

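Liver RNA of 6 pools was measured on arrays whose labels give biotin as the dye. The submitters' processing notes name MAS5, with a version not given in these sources. For 45101 probe sets the authors deposited signals on the log2 scale, each with a Present or Absent call and its detection p-value. They also deposited a fold ratio with a p-value and direction for each. The series matrix held the same log2 values (largest difference 4.91e-07). The deposited values were used with no pseudocount or further scaling. Fits left out 64 control probe sets and needed Present calls on at least 3 arrays.

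Gene names came from the platform annotation (34958 probe sets with 1 symbol, 932 with several, 9211 with none), positions and promoters from RefSeq GRCm38.p6. Fits used limma 3.58.1 in R 4.3.3 with an intensity trend, tested on simulated data. Genes named were Dbi, the 8 members, other listed retinoid genes that changed, a few fixed by name, and the 5 closest profiles of each changed member. Members and lists were chosen with earlier results of these data known. A planned look at protein motifs was not made. Precision is limited by there being 6 arrays. Pools with the same number did not deviate together (correlations -0.082 to -0.008), so the pool number is only an alternative.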

Additional observations from a re-analysis of the deposited data

How the results depend on the processing

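Every estimate for Rdh11 stayed called and lower in the 15 alternatives tried for its brighter probe set, with log2 fold changes from -2.10 to -1.77, and in the 14 for the dimmer. Retsat and Aldh1a1 lost their calls only without the intensity trend. In that setting 0 members were higher, 0 other retinoid genes were higher and 0 lower, 0 stellate markers changed in either direction, and 378 probe sets were called in all. Quantile normalization and median centring each gave 2 members lower, with Rdh5 (-0.28 and -0.26) added. Of other retinoid genes, 1 fell in the comparison as reported. The count was 2 with a pseudocount of 16 and with the Xist covariate, 3 with Present calls on all 6 arrays, quantile normalization, median centring or averaged probe sets, 4 with the replicate block and 0 without a filter. With the Xist covariate 9 rose. Stellate markers that fell numbered 4 in the comparison as reported, 6 with quantile normalization, 5 with median centring and 3 with the replicate block. They numbered 2 without a filter and 1 with the mean of probe sets. The replicate block, by pool number, changed no call of a member. Leaving out 1 pool at a time gave 2 members higher and 1 lower each time, and 2 to 12 other retinoid genes higher, the fewest when wild-type pool 1 was dropped and the most when knockout pool 3 was. It gave 1 to 2 of them lower, 0 to 1 stellate markers higher and 0 to 4 lower. Over all probe sets 1277 were called, 639 when wild-type pool 1 was dropped and 3010 when knockout pool 3 was. Rdh10 changed sign when pools were left out, with a range of -0.03 to 0.10 for its brighter probe set (-0.03 when wild-type pool 1 or knockout pool 1 was dropped, 0.00 without knockout pool 2) and -0.09 to 0.08 for the dimmer (0.08 without wild-type pool 2, 0.01 without knockout pool 3). The causes were not tested.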
